A study of Mus musculus with 24 samples.

Results

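The Kruppel-like factor genes Klf2, Klf3, Klf4, Klf5, Klf6, Klf9, Klf10, Klf11, Klf13 and Klf15, were followed through optogenetically paced mouse muscle. These 10 were selected on measured values of the same libraries, with the lower Klf6 at 4 and 10 Hz as the leading observation, so the levels of every member at 4 or 10 Hz against control, and all levels of Klf6, are given as descriptions with no test. They are 10 of the 17 Klf genes listed among 56941 gene rows, and all 10 were among the 13318 genes with enough counts to be tested. The cells were C2C12, an established mouse myoblast line, and every tissue carried the ChR2::tdTomato transgene, a light-gated cation channel joined to a red fluorescent reporter. The monolayers were grown on grooved fibrin gels and differentiated with 10% horse serum and IGF-1 in all groups. Tissues received blue light pulses for 30 min a day at 1 Hz, 4 Hz or 10 Hz over roughly 2 weeks, or no light pulses (control), with 6 biological replicates in each condition. Tissues of all conditions, controls included, twitched spontaneously, so the control is unstimulated muscle and not muscle at rest.

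Kruppel-like factors are transcription factors with a cluster of zinc fingers at the C terminus that bind GC-rich boxes and the related CACCC element, the sites that Sp factors also use. They differ in the partners that the rest of the protein recruits. Klf2, Klf4, Klf5 and Klf6 can recruit histone acetyltransferases, Klf3 recruits the corepressor CtBP, and Klf9, Klf10, Klf11 and Klf13 recruit the Sin3 histone deacetylase complex. Several are quickly induced by serum, growth factors, glucocorticoids or mechanical load, and in muscle the family is known for roles in myoblast fusion, sarcomeric gene expression and fuel use.

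Bulk RNA sequencing gave between 4085578 and 15194554 gene counts per library, with a median of 7481117. A gene is compared between libraries in CPM, its count as a share of the TMM-scaled library total, and genes are compared with each other in TPM, the share of transcripts after accounting for transcript length. All 10 muscle fiber markers were detected, with a summed level of 10243 to 13029 TPM in control, 16191 to 20724 at 1 Hz, 16393 to 23423 at 4 Hz and 10687 to 17280 at 10 Hz. The 6 markers of undifferentiated myoblasts summed to 59.7 to 102 TPM in control, 61.9 to 76.3 at 1 Hz, 54.8 to 59.9 at 4 Hz and 62.0 to 76.2 at 10 Hz, so that the 4 Hz libraries, where Klf6, Klf2 and Klf11 had their lowest means, lay below all 1 and 10 Hz libraries. Their part in these levels was not tested. The 6 markers of cycling cells summed to 34.3 to 51.7, 28.5 to 33.7, 21.9 to 40.5 and 29.2 to 39.4 TPM in the same order. Endothelial markers summed to at most 2.08 TPM with Emcn at 0, adipocyte markers to at most 13.1 TPM, and of the macrophage markers C1qa was at 0 and Ptprc stayed at or below 0.0317 TPM, while Cd68 alone reached 86.2 to 168 TPM. Genes of small RNAs without a poly(A) tail took 73.7 ± 14.0 CPM of the counts in control (SD, n = 6), 14.6 ± 9.62 at 1 Hz, 15.2 ± 6.48 at 4 Hz and 79.3 ± 56.3 at 10 Hz. The control libraries did not overlap with the 1 Hz or the 4 Hz libraries in this share (two-sided exact permutation p = 0.00216 each, the smallest 6 against 6 can give, and 0.0104 after Benjamini-Hochberg adjustment over 12 comparisons of share and depth). In bulk RNA, fewer cells of a type and less RNA per cell cannot be told apart.

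In control muscle Klf6 was the most abundant member at 151 ± 12.6 TPM (SD, n = 6), with no overlap with Klf5 at 94.5 ± 10.3. Klf4 followed at 71.4 ± 9.77, Klf3 at 57.1 ± 10.8, Klf10 at 40.8 ± 3.50 and Klf9 at 36.6 ± 3.07 TPM, and each of these overlapped with its neighbour in the order. Klf13 (17.0 ± 3.36), Klf11 (14.4 ± 3.47) and Klf2 (11.6 ± 3.95 TPM) formed a lower level below Klf9 without overlap, and Klf15 was near the floor at 0.544 ± 0.384 TPM. At 1 Hz Klf5 (136 ± 10.9 TPM) and Klf6 (133 ± 11.2) overlapped at the top, and at 4 Hz Klf6 (65.7 ± 9.27) lay beside Klf10 (66.9 ± 5.69), both below Klf5 (103 ± 8.78). At 10 Hz Klf5 (97.9 ± 23.5) and Klf6 (95.2 ± 25.4 TPM) overlapped again. Klf6 made up 30.4% ± 1.31 of the summed TPM of the 10 members in control, 21.7% ± 1.67 at 1 Hz, 15.7% ± 1.60 at 4 Hz and 22.7% ± 5.64 at 10 Hz. The sum itself was 495 ± 22.3, 615 ± 37.3, 417 ± 31.6 and 424 ± 58.9 TPM in that order.

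**Figure D1:**
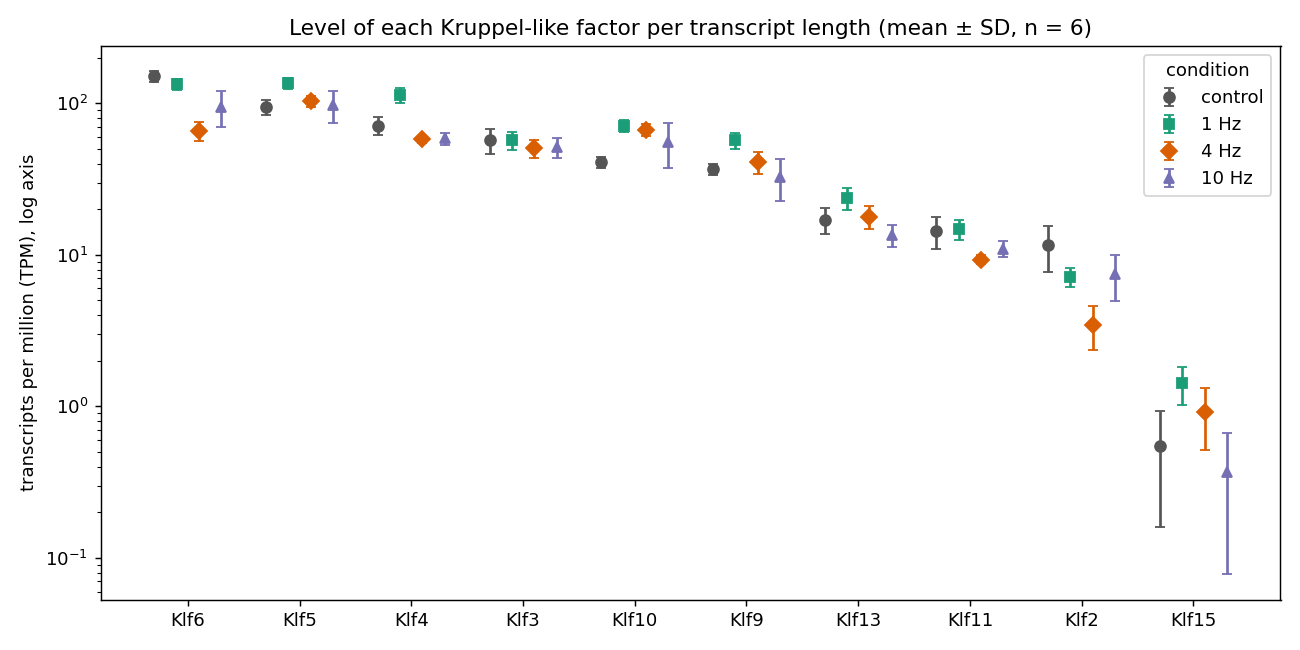
Mean level of each Kruppel-like factor in TPM (log axis) with SD over 6 libraries, by condition, ordered by the control level. Klf6 leads in control at 151 TPM and lies at 65.7 TPM at 4 Hz, and Klf15 is the lowest in every condition.

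A gene was called different when its adjusted p was below 0.05 (edgeR quasi-likelihood test, Benjamini-Hochberg adjustment over 13318 genes) and its log2 fold change was beyond 0.5 in either direction. At 1 Hz against control 7 of the 10 members were called, 6 higher (Klf4, Klf5, Klf9, Klf10, Klf13 and Klf15) and 1 lower (Klf2), where 18.3% of all tested genes were called, 9.34% higher and 8.99% lower. The median log2 fold change of all 10 members, Klf6 and Klf15 included, was 0.59, against -0.01 over all tested genes. Klf15 passed the filter on low counts only through the 1 and 4 Hz libraries. Without it the count is 6 of 9, with the untested Klf6 among the 9.

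Between the pacing frequencies the calls were mostly toward lower levels at the faster rate. At 4 Hz against 1 Hz 3 of the 9 members other than Klf6 were lower (Klf2, Klf4 and Klf11) and none higher, where 3.00% of genes were called, 1.59% higher and 1.40% lower. Klf6 also lay past both thresholds, but it was selected on its 4 Hz level and is not counted. Going from 1 to 10 Hz, 4 were lower (Klf4, Klf9, Klf13 and Klf15) and none higher, where 17.9% of genes were called, 9.45% higher and 8.49% lower. From 4 to 10 Hz Klf2 was higher and Klf15 lower, where 11.0% of genes were called, 5.32% higher and 5.64% lower. Klf15 was kept by the filter through the groups where it is high. Without it these counts are 3 of 9 at 10 Hz against 1 Hz and 1 of 9 at 10 Hz against 4 Hz, with the untested Klf6 among the 9. The median log2 fold changes of all 10 members were -0.41, -0.42 and -0.11 in these 3 comparisons. The medians of all genes were 0.00, 0.01 and 0.01. Because Klf6 and Klf15 are included, the members' medians are descriptions only. The comparisons share libraries with each other, so they are not independent.

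Against control, 4 Hz gave 3 members past both thresholds, Klf10 higher and Klf2 and Klf6 lower, where 20.1% of genes passed, 10.5% higher and 9.61% lower. At 10 Hz 2 members passed, Klf10 higher and Klf6 lower, where 1.86% of genes passed, 1.24% higher and 0.623% lower. Nothing is read from these counts, because the genes were selected on these contrasts. The median over the members was 0.12 at 4 Hz and -0.20 at 10 Hz on the log2 scale.

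**Figure D2:**
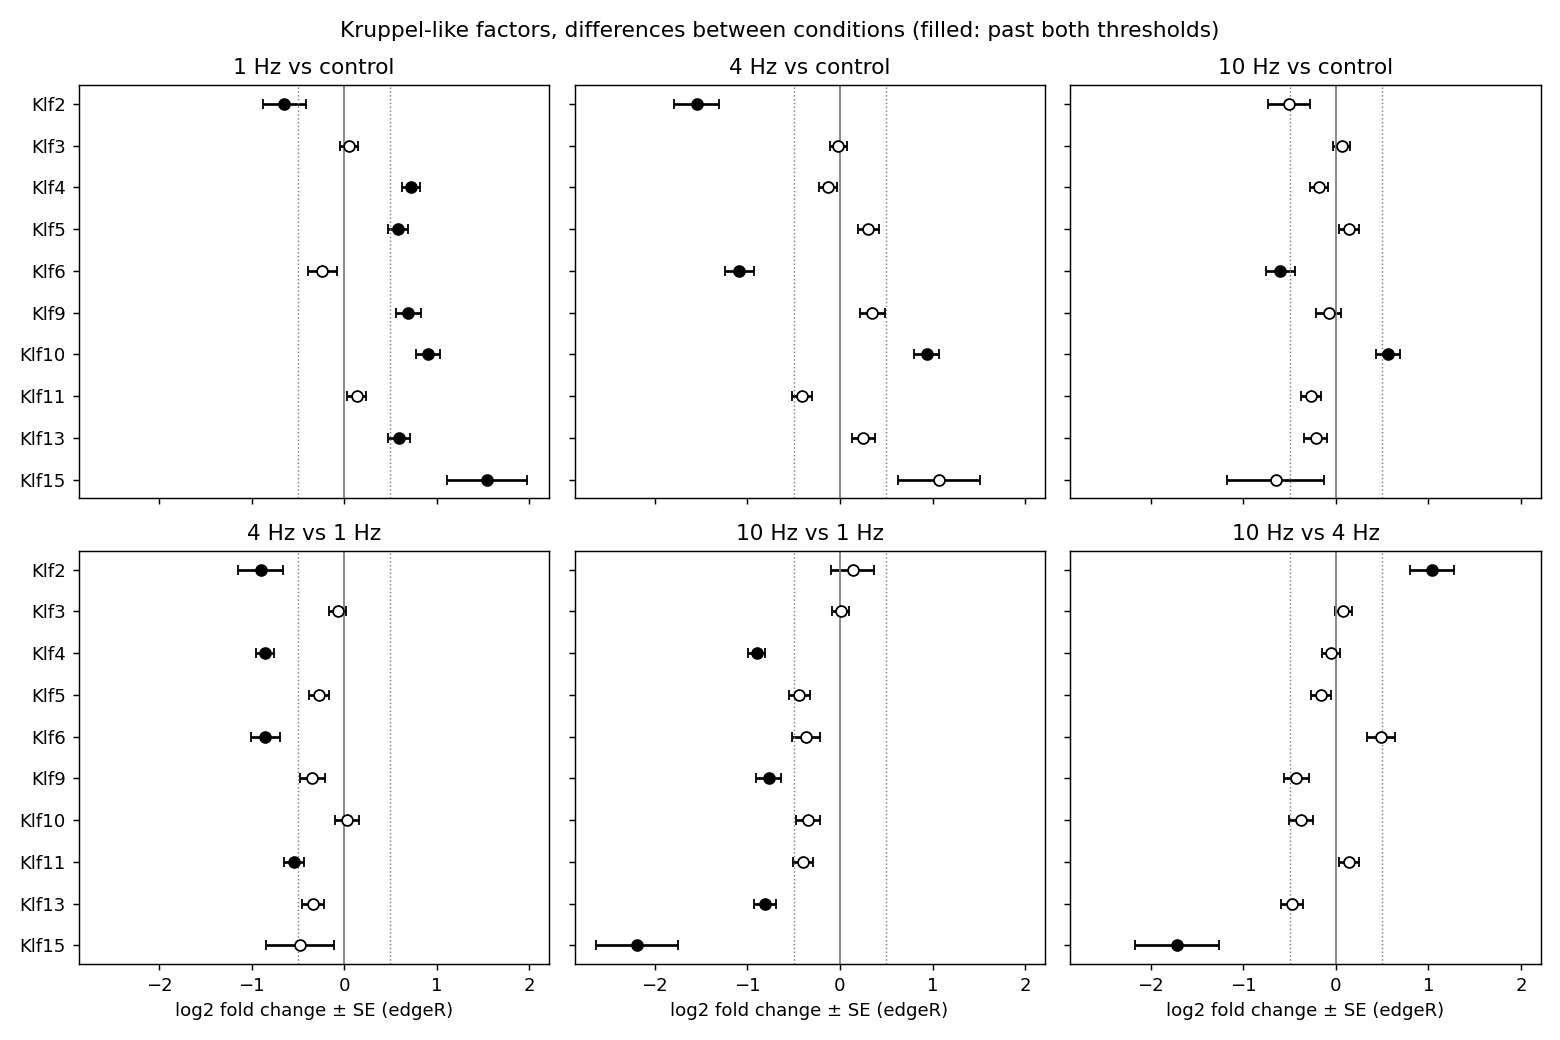
Log2 fold change (x axis) of each member with its standard error from edgeR in the 6 comparisons, with dotted lines at 0.5 in either direction and filled points past both thresholds. Filled points lie to the right for 6 members at 1 Hz against control and to the left for 4 members in both comparisons of a faster rate with 1 Hz, and the panels of 4 and 10 Hz against control, like Klf6 throughout, show values that chose the genes.

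At 1 Hz 6 members were higher together, among them Klf15, which was kept by the filter through the groups where it is high. The 100 bases before their annotated starts are therefore shown, with Klf6 for contrast. They were read from GRCm39 on the strand of the gene, ahead of the start of the canonical GENCODE M39 transcript, 5′ to 3′. Capitals mark matches on either strand to the GC box (GGGCGG), to the CACCC element, to the cAMP response core TGACG, to the E-box (CACGTG), to the CCAAT element or to TATAA, and adjoining or overlapping matches run together.
Klf4, chr4:55532467-55532566, minus strand: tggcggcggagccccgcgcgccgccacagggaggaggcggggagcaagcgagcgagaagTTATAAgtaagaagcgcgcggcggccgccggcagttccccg
Klf5, chr14:99535986-99536085, plus strand: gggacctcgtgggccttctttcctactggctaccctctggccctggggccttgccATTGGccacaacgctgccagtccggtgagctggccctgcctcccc
Klf9, chr19:23118087-23118186, plus strand: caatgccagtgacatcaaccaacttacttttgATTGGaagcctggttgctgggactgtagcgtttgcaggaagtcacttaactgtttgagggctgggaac
Klf10, chr15:38300960-38301059, minus strand: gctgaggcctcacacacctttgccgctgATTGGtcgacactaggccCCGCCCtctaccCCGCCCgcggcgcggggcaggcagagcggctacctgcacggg
Klf13, chr7:63588664-63588763, minus strand: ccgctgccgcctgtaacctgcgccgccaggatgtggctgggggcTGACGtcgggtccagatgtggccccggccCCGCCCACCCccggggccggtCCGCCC
Klf15, chr6:90439341-90439440, plus strand: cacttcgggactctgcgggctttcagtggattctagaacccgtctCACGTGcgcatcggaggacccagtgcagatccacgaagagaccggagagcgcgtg
Klf6, chr13:5911381-5911480, plus strand: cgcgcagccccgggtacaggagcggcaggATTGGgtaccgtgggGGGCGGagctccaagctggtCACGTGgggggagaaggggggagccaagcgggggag

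These windows shared no single element. Of the 10 members, 5 held a GC box in the window, against 40.1% of 11986 promoters of tested genes, 2 held CACCC (30.6%), 5 held CCAAT (23.7%), 2 held an E-box (4.57%), 2 held the core TGACG (15.0%) and 1 held TATAA (4.76%). These counts include Klf2, Klf3 and Klf11, whose windows are not shown. Among the members called higher at 1 Hz, the GC box was found in Klf10 and Klf13 and CCAAT in Klf5, Klf9 and Klf10. The full cAMP response element TGACGTCA (1.64%) and the serum response element core (0.551%) were found in none of the members. The window of Klf9 was the poorest in G and C at 48% and that of Klf13 the richest at 79%, around a median of 62% over all these promoters. A match of letters is a description and not evidence of binding.

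Klf6 (chr13:5911481-5920393, plus strand, protein coding, 4 exons in the canonical transcript) is an injury-responsive activator and a tumour suppressor in several epithelia. Its level was 316 CPM in the lowest control library, 384 at the median and 475 in the highest. At 1 Hz the lowest, median and highest were 273, 316 and 403 CPM, at 4 Hz 129, 181 and 224, and at 10 Hz 180, 239 and 396. Every 4 Hz library lay below every control and every 1 Hz library, whereas 1 of the 6 libraries at 10 Hz reached into the control range. The log2 fold change against control was -0.24 ± 0.15 (SE) at 1 Hz, -1.09 ± 0.16 at 4 Hz and -0.60 ± 0.15 at 10 Hz. Klf6 was thus 2.13-fold lower at 4 Hz and 1.52-fold lower at 10 Hz, values on which the gene was selected. Klf6 at 10 Hz was 0.49 ± 0.15 above 4 Hz on the log2 scale. With the share of small RNA added to the fit, the log2 fold changes of Klf6 against control were 0.13 at 1 Hz, -0.75 at 4 Hz and -0.58 at 10 Hz. Without 10 Hz replicates 5 and 6 that at 10 Hz was -0.49.

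Klf2 (chr8:73072726-73075502, plus strand, 3 exons), a flow-responsive factor of endothelium that acts with Klf4 in myoblast fusion, ran from 7.21 through a median of 14.1 to 18.8 CPM in control. It ran from 7.43 through 8.22 to 10.4 CPM at 1 Hz, from 2.88 through 4.11 to 6.51 at 4 Hz and from 4.97 through 10.2 to 12.7 at 10 Hz. The 1 Hz libraries all lay inside the wide control range, while the 4 Hz libraries lay below all control and all 1 Hz libraries. Klf2 fell by 0.65 ± 0.23 (SE) on the log2 scale at 1 Hz against control (edgeR adjusted p = 0.0316), and this call was lost when any of 6 single libraries was left out (1 Hz replicates 1, 3 and 6, control replicates 3, 4 and 6, log2 fold change -0.53 to -0.63). It was lower at 4 Hz than at 1 Hz by 1.87-fold (log2 fold change -0.90 ± 0.24, adjusted p = 0.0165) and higher at 10 Hz than at 4 Hz by 2.05-fold (1.04 ± 0.24, adjusted p = 0.00329). Against control the log2 difference was -1.55 ± 0.24 at 4 Hz and -0.51 ± 0.23 at 10 Hz.

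The whole of Klf2, 2777 bases, lies inside Eps15l1 on the opposite strand. The paper names a directional kit for its libraries, but neither it nor the labels state whether reads were counted by strand. Eps15l1, an endocytic adaptor gene, had 40.6 ± 3.87 CPM in control (SD, n = 6), 40.8 ± 4.65 at 1 Hz, 37.8 ± 4.25 at 4 Hz and 39.7 ± 2.48 at 10 Hz, and was not called in any of the 6 comparisons. Endothelial markers were near 0 in these cultures.

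Klf4 (chr4:55527139-55532528, minus strand, 5 exons), known as a reprogramming factor and a regulator of differentiation, was high at 1 Hz alone among the 4 conditions. The lowest, median and highest libraries had 106, 142 and 175 CPM in control, 184, 233 and 272 at 1 Hz, 122, 126 and 138 at 4 Hz, and 106, 125 and 133 at 10 Hz. All 1 Hz libraries exceeded all 18 others. Klf4 rose 1.65-fold at 1 Hz against control (log2 fold change 0.72 ± 0.10, edgeR adjusted p = 8.36e-06). It was 1.80-fold lower at 4 Hz than at 1 Hz (-0.85 ± 0.10, adjusted p = 3.58e-06) and 1.87-fold lower at 10 Hz than at 1 Hz (-0.90 ± 0.10, adjusted p = 3.82e-07). Between 10 and 4 Hz the log2 difference was -0.05 ± 0.10 (adjusted p = 0.742), and the differences from control were -0.13 ± 0.10 at 4 Hz and -0.18 ± 0.10 at 10 Hz.

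Klf5 (chr14:99536086-99552473, plus strand, 4 exons), which takes part in myogenic differentiation beside MyoD, had 161, 218 and 236 CPM in the lowest, median and highest control libraries. The corresponding values were 276, 315 and 341 at 1 Hz, 245, 251 and 290 at 4 Hz, and 173, 238 and 284 at 10 Hz. In CPM the 1 Hz and the 4 Hz libraries all exceeded the control libraries, and those at 10 Hz spread across both ranges. In TPM the 4 Hz libraries (94.3 to 118) overlapped with control (78.5 to 109). The log2 difference of 4 Hz from control was 0.31 ± 0.11, within the fold threshold. Klf5 rose 1.50-fold at 1 Hz (log2 fold change 0.58 ± 0.11, edgeR adjusted p = 0.000264). At 10 Hz against 1 Hz its log2 fold change of -0.44 ± 0.11 had an adjusted p of 0.00283 but did not pass the fold threshold, and 4 Hz against 1 Hz gave -0.27 ± 0.11 (adjusted p = 0.0983).

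**Figure D3:**
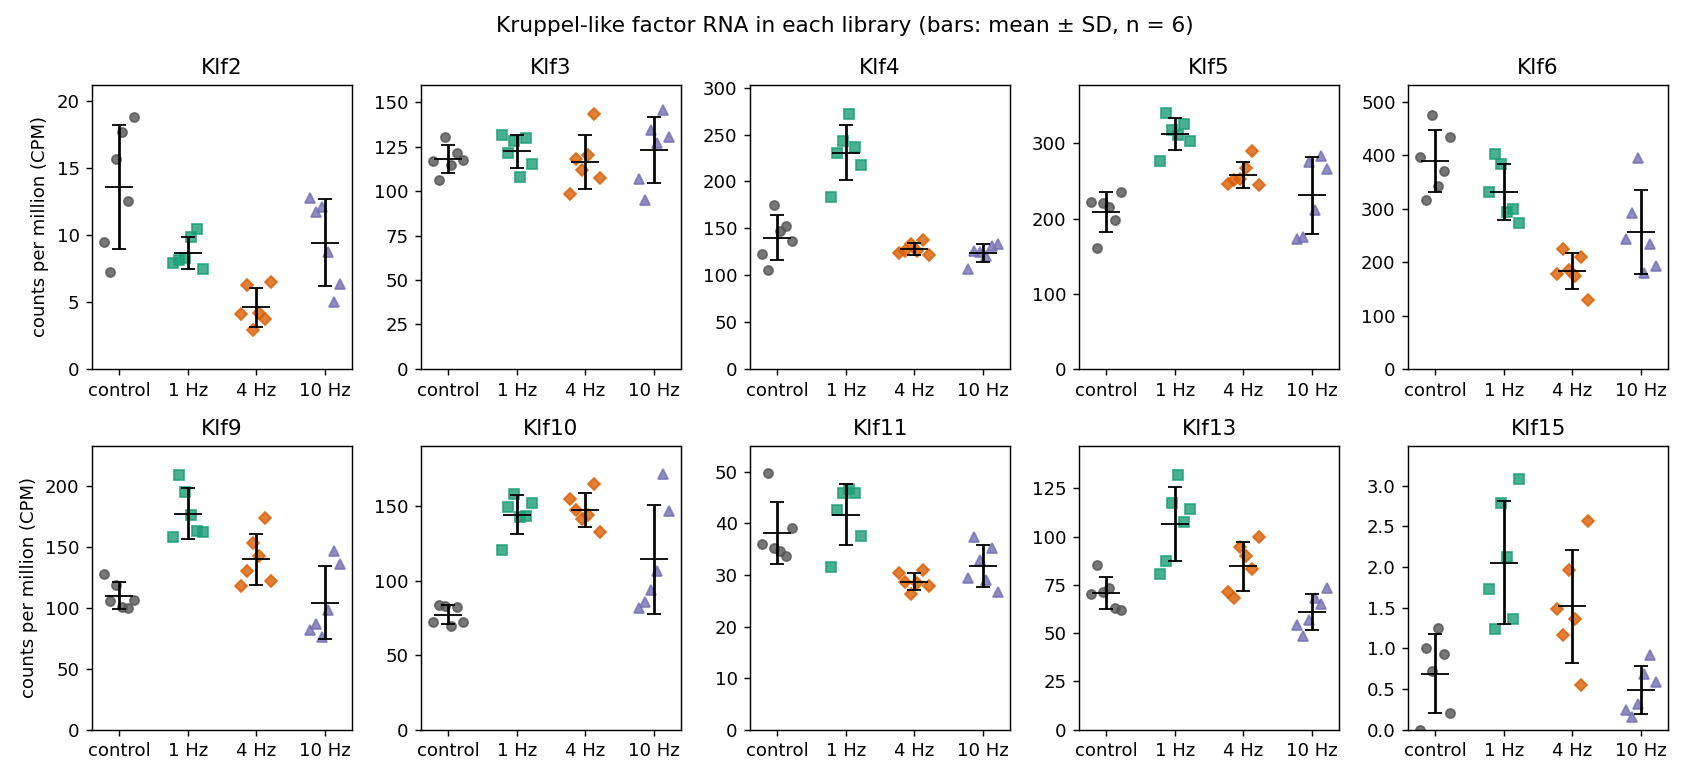
Level of the 10 members in every library in CPM (y axis, from 0, with its own scale in each panel), by condition (x axis), with the mean and SD over 6 libraries as black bars. Klf4 stands high at 1 Hz alone, Klf10 at 1 and 4 Hz, Klf6 and Klf2 are lowest at 4 Hz, and Klf3 keeps the same range in all conditions.

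Klf3 (chr5:64959875-64990261, plus strand, 6 exons), a CtBP-binding repressor that also occupies CACCC sites in muscle gene promoters, had 118 ± 7.97 CPM in control (SD, n = 6), 122 ± 9.21 at 1 Hz, 117 ± 15.3 at 4 Hz and 123 ± 18.8 at 10 Hz. The libraries ranged from 94.8 to 145 CPM over all conditions and the 4 ranges overlapped. It was not called in any comparison, with log2 fold changes from -0.07 to 0.08, each with an SE of 0.09. Klf3 shares 1917 bases with the opposite-strand lncRNA gene Gm20033 and 1722 bases with C230096K16Rik on its own strand. Neither passed the thresholds in any comparison, and their mean levels were at most 2.84 and 1.32 CPM.

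Among the Sin3-binding members, Klf9, Klf10 and Klf13 were higher at 1 Hz than in control, and Klf11 was not called there. Klf10 (chr15:38291703-38300959, minus strand, 4 exons), an early gene of TGF-beta signalling, had 69.7, 77.4 and 83.5 CPM in the lowest, median and highest control libraries. It had 121, 146 and 158 CPM at 1 Hz, 132, 146 and 165 at 4 Hz, and 81.9, 99.95 and 171 at 10 Hz. The 1 and 4 Hz libraries shared one range that lay wholly above control. Klf10 rose 1.87-fold at 1 Hz (log2 fold change 0.91 ± 0.13, edgeR adjusted p = 1.99e-05), and 4 Hz differed from 1 Hz by 0.03 ± 0.13 on the log2 scale (adjusted p = 0.910). Its log2 fold change against control was 0.94 ± 0.13 at 4 Hz and 0.56 ± 0.13 at 10 Hz. The log2 differences of 10 Hz from 1 Hz (-0.34 ± 0.13, adjusted p = 0.0407) and from 4 Hz (-0.37 ± 0.13, adjusted p = 0.0384) did not pass the fold threshold.

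Klf9 (chr19:23118187-23148497, plus strand, 2 exons), a direct target of the glucocorticoid and thyroid hormone receptors, had 99.7, 106 and 128 CPM in the lowest, median and highest control libraries. Its levels were 158, 169 and 209 CPM at 1 Hz, 118, 136 and 173 at 4 Hz, and 75.9, 92.4 and 147 at 10 Hz. The 1 Hz libraries lay above all control and all 10 Hz libraries. Klf9 rose 1.61-fold at 1 Hz against control (log2 fold change 0.69 ± 0.13, edgeR adjusted p = 0.000347) and was 1.70-fold lower at 10 Hz than at 1 Hz (-0.77 ± 0.13, adjusted p = 9.76e-05). The log2 difference of 10 Hz from 4 Hz, -0.43 ± 0.13 (adjusted p = 0.0224), did not pass the fold threshold, and 4 Hz against 1 Hz gave -0.34 ± 0.13 (adjusted p = 0.0889).

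Klf13 (chr7:63536099-63588663, minus strand, 2 exons), first known from T lymphocytes and also active in heart muscle, had its highest level at 1 Hz and its lowest at 10 Hz. The lowest, median and highest libraries had 61.9, 70.6 and 85.2 CPM in control, 80.7, 111 and 132 at 1 Hz, 67.9, 86.5 and 99.8 at 4 Hz, and 48.4, 61.1 and 73.1 at 10 Hz. Of the 6 libraries at 1 Hz, 5 exceeded every control, and all of them exceeded every 10 Hz library. Klf13 rose 1.51-fold at 1 Hz against control (log2 fold change 0.59 ± 0.12, edgeR adjusted p = 0.000514) and was 1.75-fold lower at 10 Hz than at 1 Hz (-0.81 ± 0.12, adjusted p = 1.68e-05). The log2 difference of 10 Hz from 4 Hz was -0.47 ± 0.12 (adjusted p = 0.00648, within the fold threshold). With limma on log2(TPM + 1) the rise at 1 Hz was 0.46 and within the fold threshold. Klf9, Klf10 and Klf13 each share bases with lncRNA genes on the opposite strand that had too few counts to be tested, and Klf13 also with the untested coding gene E030018B13Rik.

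Klf11 (chr12:24701273-24712913, plus strand, 4 exons), the close relative of Klf10, had 33.7, 35.6 and 49.8 CPM in the lowest, median and highest control libraries. Levels were 31.6, 44.3 and 46.6 CPM at 1 Hz, 26.3, 28.5 and 30.9 at 4 Hz, and 26.7, 31.1 and 37.4 at 10 Hz. The 4 Hz libraries formed a narrow group below all control and all 1 Hz libraries. Klf11 was 1.46-fold lower at 4 Hz than at 1 Hz (log2 fold change -0.54 ± 0.10, edgeR adjusted p = 0.00154). At 10 Hz against 1 Hz it differed by -0.40 ± 0.10 (adjusted p = 0.00399, within the fold threshold), and at 1 Hz against control by 0.13 ± 0.11 (adjusted p = 0.333).

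Klf15 (chr6:90438998-90452220, plus strand, 3 exons), a glucocorticoid-induced regulator of amino acid and lipid use in muscle, was barely expressed. Control libraries held 0 to 10 counts of it and 10 Hz libraries 1 to 5, against 5 to 41 at 1 Hz and 4 to 26 at 4 Hz. In CPM the lowest, median and highest were 0, 0.828 and 1.25 in control, 1.23, 1.93 and 3.08 at 1 Hz, 0.547, 1.42 and 2.57 at 4 Hz, and 0.154, 0.451 and 0.921 at 10 Hz. All 1 Hz libraries exceeded all 10 Hz libraries, and the lowest of them overlapped with control. The log2 fold change was 1.55 ± 0.43 (SE) at 1 Hz against control, -2.20 ± 0.44 at 10 Hz against 1 Hz and -1.72 ± 0.45 at 10 Hz against 4 Hz. These folds rest on few counts and are given with no p, because the gene passed the filter through the groups where it is high.

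The share of small RNA moved with several of these levels. With the log2 share added to the fit, 0 of the 7 calls at 1 Hz against control were kept (edgeR, log2 fold changes of 0.55 for Klf4, 0.29 for Klf10, 0.27 for Klf9, 0.26 for Klf5, 0.09 for Klf13, 0.72 for Klf15 and 0.04 for Klf2), and 1 gene of all 13318 was called. The 2 conditions do not overlap in this share, so it and the pacing cannot be told apart. At 4 Hz and 1 Hz the shares overlapped (9.36 to 26.5 and 6.41 to 32.3 CPM), and with the share in the fit Klf2, Klf4 and Klf11 were again called lower. The 10 Hz shares overlapped with those of 1 Hz at 22.9 to 32.3 CPM. They reached the 1 and 4 Hz ranges only through 10 Hz replicate 6, so there too share and pacing can hardly be told apart. With the share in the fit Klf4 alone of the 4 calls at 10 Hz against 1 Hz was kept, where 0.818% of all genes were called. At 10 Hz against 4 Hz neither call was kept with the share in the fit, and 0 of all 13318 genes were called. At an unadjusted p below 0.05, 1 of the 10 members passed in this fit at 1 Hz against control and 0 at 10 Hz against 4 Hz, and the fit was not repeated with DESeq2. Without the share in the fit, Klf15 was among the calls at 1 Hz against control and at 10 Hz against 1 or 4 Hz. It was kept by the filter through the groups where it is high.

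Within 10 Hz, replicates 5 and 6 had the lowest share, 38.2 and 22.9 CPM, against 51.9 to 174 in the other 4 libraries. In the same pair Klf10 was at 146 and 171 CPM against 81.9 to 106 in the other 4, and Klf9 at 136 and 147 against 75.9 to 98.4. Klf4 at 131 and 133 CPM also lay above the other 4 (106 to 125), and Klf2 at 4.97 and 6.37 CPM below them (8.74 to 12.7). Without these 2 libraries, an alternative chosen after seeing the data, 0 members passed at 10 Hz against control, 6 were called lower at 10 Hz against 1 Hz, Klf5 (-0.58) and Klf10 (-0.65) in addition, and 5 of the 9 members other than Klf6 were called at 10 Hz against 4 Hz. In the last of these, Klf9 (-0.71), Klf10 (-0.68) and Klf13 (-0.57) were lower, beside the calls of Klf2 and Klf15. Klf15, kept by the filter through the groups where it is high, is among the members called against 1 Hz and against 4 Hz. Of all tested genes 1.07%, 21.2% and 15.0% were called at 10 Hz against control, 1 Hz and 4 Hz without the pair. With it these shares were 1.86%, 17.9% and 11.0%. The part of library composition in these levels was not tested.

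**Figure D4:**
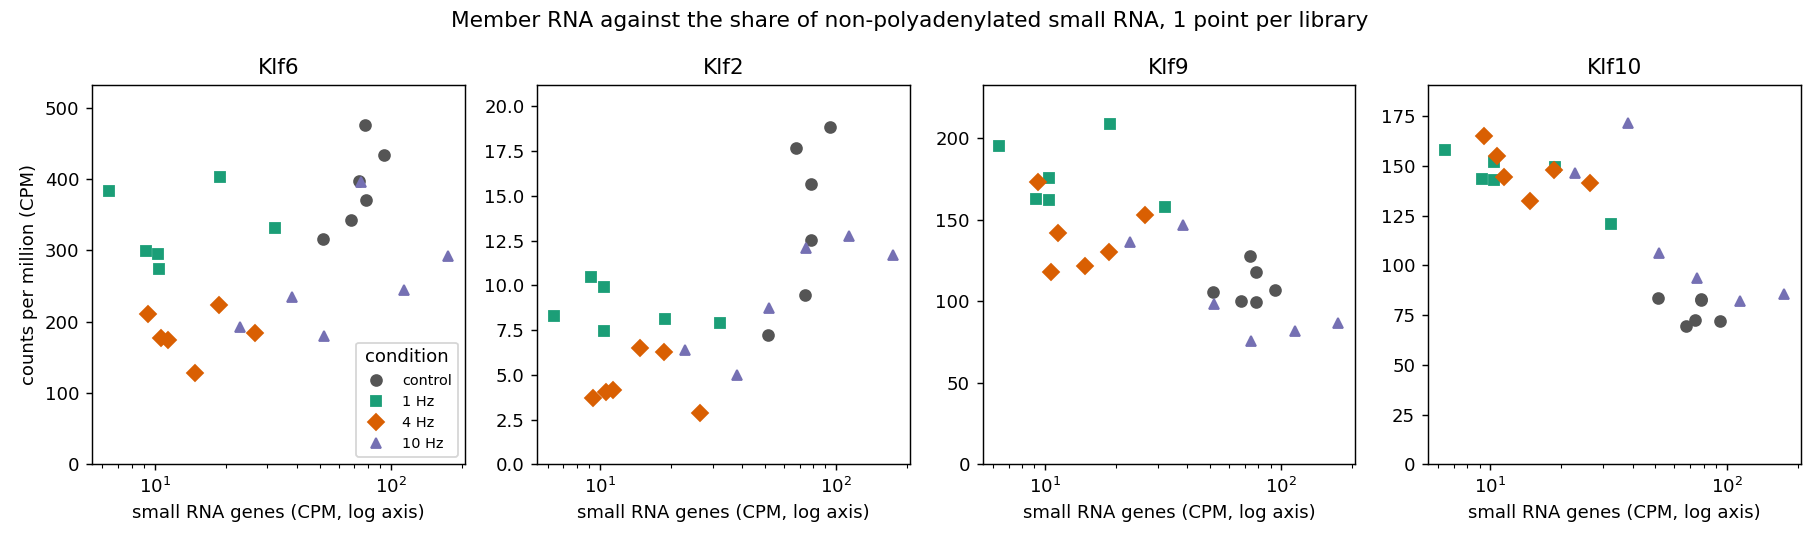
Level of Klf6, Klf2, Klf9 and Klf10 in CPM (y axis) against the share of small RNA genes in CPM (x axis, log scale), 1 point per library, with markers by condition. The 10 Hz libraries with the lowest share, at 22.9 and 38.2 CPM, lie near the 1 and 4 Hz libraries in Klf9 and Klf10, and control and 1 Hz libraries do not overlap along the x axis.

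Of the 7 other Klf genes in the tables, Klf7 and Klf16 had enough counts to be tested. Klf7, known from neurons and as a relative of Klf6, had 42.5, 50.0 and 75.6 CPM in the lowest, median and highest control libraries, 38.6, 45.3 and 59.4 at 1 Hz, 30.3, 33.3 and 40.7 at 4 Hz, and 24.6, 28.7 and 36.0 at 10 Hz. It was lower than control at 4 Hz (log2 fold change -0.64 ± 0.13, edgeR adjusted p = 0.000337) and at 10 Hz (-0.85 ± 0.13, adjusted p = 0.000603), in both without overlap, and was lower at 10 Hz than at 1 Hz (-0.64 ± 0.13, adjusted p = 0.000465). With the small RNA share in the fit the calls against control were kept and that against 1 Hz was lost. Klf16 was called in none of the comparisons, with 34.7 ± 6.12 CPM in control (SD, n = 6) and 43.6 ± 8.22 at 1 Hz. Klf1, Klf8 and Klf12 stayed below the filter, Klf14 was at 0 in all libraries and Klf17 in 22 of 24.

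The Sp factors bind the same boxes, and 6 of 9 listed were tested, with a median log2 fold change of 0.20 at 1 Hz against control beside -0.01 over all genes. At 1 Hz against control 2 of 6 tested Sp genes rose and 1 fell, Sp8 (log2 fold change 0.86 ± 0.20), Sp2 (0.52 ± 0.13) and Sp6, and at 4 Hz Sp6 alone was lower. Relative to 1 Hz, 3 were lower at 10 Hz, with Sp8 at -1.15 ± 0.20 and Sp1 at -0.74 ± 0.14 beside Sp2, and against 4 Hz Sp8 alone. With edgeR 0 Sp genes were called at 10 Hz against control or at 4 Hz against 1 Hz, where 2 had an unadjusted p below 0.05 in each and DESeq2 called 0 and 1. The genes of cofactors and regulators of Klf proteins were mostly not called, with a median of -0.03 at 1 Hz. Of 14, 0 passed at 1 Hz or at 10 Hz against control with edgeR or DESeq2, and 6 and 4 had an unadjusted edgeR p below 0.05. Sin3a, the scaffold that Klf9, Klf10, Klf11 and Klf13 bind, was lower at 4 Hz against control (-0.59 ± 0.10, edgeR adjusted p = 7.14e-05). The deacetylase gene Hdac1 was higher than at 1 Hz both at 4 Hz (0.51 ± 0.10) and at 10 Hz (0.80 ± 0.10, edgeR adjusted p = 2.41e-06). Its mean was lowest at 1 Hz, with 39.5 CPM in control, 28.0 at 1 Hz, 40.1 at 4 Hz and 49.0 at 10 Hz. Ctbp2 was lower at 10 Hz than at 4 Hz (-0.51 ± 0.10). With the small RNA share in the fit (edgeR), 0 Sp genes were called at 1 or 4 Hz against control or at 10 Hz against 1 or 4 Hz (0, 1, 2 and 0 at an unadjusted p below 0.05). In the same fit 0 cofactor genes were called at 4 Hz against 1 Hz or at 10 Hz against 1 or 4 Hz (4, 2 and 1 at an unadjusted p below 0.05). It called 1 cofactor gene at 4 Hz against control and 1 Sp gene at 10 Hz against control. Of all tested genes this fit called 0.818% at 10 Hz against 1 Hz and 0 at 10 Hz against 4 Hz. It called 2.12% at 4 Hz and 1.70% at 10 Hz against control.

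Related pathways and targets were followed through lists of genes with textbook links to the members. Their median log2 fold changes at 1 Hz against control were 0.10 for the glucocorticoid list, 0.25 for the Klf15 list, 0.19 for the TGF-beta list and 0.24 for the immediate early genes, beside -0.01 over all genes, and with the small RNA share in the fit 0 genes of these lists were called there (edgeR, 8 at an unadjusted p below 0.05). Beside the counts of every list, the Sp and cofactor genes included, stand the shares of all tested genes called without the small RNA share in the fit. They were 18.3%, 20.1% and 1.86% at 1, 4 and 10 Hz against control. Against 1 Hz they were 3.00% at 4 Hz and 17.9% at 10 Hz, and 11.0% at 10 Hz against 4 Hz. Of 9 tested genes for the glucocorticoid receptor and its targets, 1 rose at 1 Hz against control, the kinase gene Sgk1 (log2 fold change 0.66 ± 0.11, edgeR adjusted p = 0.000104), and the receptor gene Nr3c1 did not pass. At 4 Hz 1 rose and 3 fell, with the phosphatase gene Dusp1 at -1.46 ± 0.13 and the stress gene Ddit4 at 0.59 ± 0.15, beside Sgk1 and Cebpd. At 10 Hz 1 rose and 2 fell, Ddit4, Dusp1 (-0.89 ± 0.12) and Sgk1 (-0.69 ± 0.11). Relative to 1 Hz, Sgk1 was at -1.25 ± 0.11 at 4 Hz, where 1 rose and 2 fell, and at -1.35 ± 0.11 at 10 Hz, where 1 rose and 4 fell, Nr3c1 and Per1 among them. At 10 Hz against 4 Hz 1 rose (Dusp1, 0.57 ± 0.13) and 2 fell (Nr3c1, -0.53 ± 0.13, and Per1).

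Of 11 tested metabolic and atrophy genes linked to Klf15, Pdk4, which restrains glucose oxidation, rose at 1 Hz against control (log2 fold change 0.61 ± 0.11, edgeR adjusted p = 0.000123), and 0 passed at 4 or 10 Hz against control or at 4 Hz against 1 Hz with edgeR or DESeq2 (6, 0 and 1 at an unadjusted edgeR p below 0.05). At 10 Hz against 1 Hz Pdk4 (-0.81 ± 0.11, edgeR adjusted p = 3.92e-06) and the glucose transporter gene Slc2a4 were lower and Prodh higher. At 10 Hz against 4 Hz Slc2a4 was lower. Slc2a4 and Prodh had low levels. Slc2a4 had means of 3.64, 4.29 and 2.16 CPM at 1, 4 and 10 Hz, and Prodh 0.702 at 1 Hz and 1.53 at 10 Hz. Of 15 TGF-beta pathway genes, 4 rose at 1 Hz against control and 0 fell, the receptor genes Tgfbr1 (0.54 ± 0.15) and Tgfbr2 and the ligand genes Tgfb3 (0.54 ± 0.11) and Tgfb2. At 4 Hz Tgfb2 was higher (0.55 ± 0.12) and the target Ccn2 lower (-0.68 ± 0.16), and 0 passed at 10 Hz with edgeR or DESeq2 (3 at an unadjusted edgeR p below 0.05). Ccn2 was also lower at 4 Hz than at 1 Hz (-0.64 ± 0.16), and at 10 Hz than at 1 Hz Tgfbr1 (-0.63 ± 0.15) and Tgfbr2 (-0.57 ± 0.12) were lower. At 10 Hz against 4 Hz 0 of the 15 passed with edgeR or DESeq2, and 9 had an unadjusted edgeR p below 0.05.

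The shares of all tested genes called were 18.3%, 20.1% and 1.86% at 1, 4 and 10 Hz against control. Against 1 Hz they were 3.00% at 4 Hz and 17.9% at 10 Hz, and 11.0% at 10 Hz against 4 Hz. Of 14 immediate early genes, 5 rose and 2 fell at 1 Hz against control, with the AP-1 genes Fosb at 0.83 ± 0.20 and Fos at -1.26 ± 0.25 on the log2 scale. At 4 Hz against control 1 rose and 4 fell, with Fos at -2.26 ± 0.27 (edgeR adjusted p = 7.49e-07) and Egr1 at -1.18 ± 0.13 (adjusted p = 3.28e-07), and at 10 Hz 3 fell, with Egr1 at -1.09 ± 0.13 and Fos at -1.01 ± 0.25. At 4 Hz against 1 Hz 1 rose and 5 fell (Fosb -1.66 ± 0.20, Myc -1.15 ± 0.12), and at 10 Hz against 1 Hz 6 fell (Egr2 -1.32 ± 0.17, Fosb -1.28 ± 0.20). Finally, 2 rose and 1 fell at 10 Hz against 4 Hz, with Fos at 1.25 ± 0.27 and Junb at -0.77 ± 0.15. With the small RNA share in the fit (edgeR), 0 genes of the glucocorticoid, Klf15, TGF-beta and immediate early lists were called at 10 Hz against 4 Hz (1, 0, 0 and 1 at an unadjusted p below 0.05). In that fit 0 genes of the Klf15 and TGF-beta lists were called at 10 Hz against 1 Hz (1 and 1 at an unadjusted p below 0.05), and 0 of the TGF-beta list at 4 Hz against control (2 at an unadjusted p below 0.05). The same fit called 6 immediate early genes at 4 Hz against 1 Hz, 5 at 10 Hz against 1 Hz and 3 each at 4 and 10 Hz against control. In that order it called 3, 2, 2 and 2 glucocorticoid genes. At 4 Hz against 1 Hz it also called 1 TGF-beta gene. Of all tested genes this fit called 0 at 10 Hz against 4 Hz, 0.818% at 10 Hz against 1 Hz and 2.12% at 4 Hz against control. It called 3.09% at 4 Hz against 1 Hz and 1.70% at 10 Hz against control.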

How the data were processed

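Total RNA of 24 C2C12 tissues was sequenced as poly(A)-selected 50-base paired-end libraries made with a directional kit. Some low-input samples, not identified by the labels, were prepared by ribodepletion. The authors ran the nf-core/rnaseq pipeline with Salmon on GRCm39 and Ensembl annotation of a release that the study does not name and deposited estimated counts and TPM per gene. The deposited estimated counts were rounded (6.62 to 10.6% of values were not whole). Genes were kept with filterByExpr of edgeR 4.0.16 (13318 of 56941, 99.8% of counts), scaled by TMM and tested with the quasi-likelihood test over all 24 libraries with condition as the only term (R 4.3.3). The deposited TPM values were compared between genes and tested with limma 3.58.1 as an alternative. The study's own tool was DESeq2, run here as an alternative (1.42.0). The fit was tested on simulated data.

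Replicates are separate tissues. No pair of libraries of one condition agreed within sampling noise (lowest chi-square per gene 3.18 over 60 pairs). The members and gene lists were chosen with earlier results of these data known. All members are named. Of each list, at most 2 called genes with the largest change and a mean of 5 CPM or more are given with values, and other called genes are named where 5 or fewer passed, chosen after their values were seen. Gene positions are from GENCODE M39, in which 99.8% of tested genes were found by identifier. No protein sequence was used here.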

Additional observations from a re-analysis of the deposited data

Results flagged for a closer look

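The control library of replicate 2 had 49.8 CPM of Klf11, apart from the other 5 control libraries at 33.7 to 39.1 CPM. Its gap to the nearest library was 0.662 of the range of the group, above Dixon's 95% critical value of 0.625 for 6 samples. Of 40 groups of 6 libraries (10 members in 4 conditions) 1 was set apart in this way, and chance gives about 2.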

How the results depend on the processing

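Counts of called members within 1.5 times the main count in all alternatives were those of 4 Hz against 1 Hz, with 4 in each. All counts here are over all 10 members. They include Klf6, which is described without a test, and Klf15, which was kept by the filter through the groups where it is high. With the small RNA share as a covariate the count was 0 at 1 Hz, 0 at 4 Hz and 1 at 10 Hz against control, 1 at 10 Hz against 1 Hz and 0 at 10 Hz against 4 Hz. Of all tested genes 0.00751%, 2.12%, 1.70%, 0.818% and 0% were called in that order. The share separates control from 1 and 4 Hz without overlap, so there it and the pacing cannot be told apart. The 10 Hz range overlapped with that of control. With 1 and 4 Hz it overlapped only through 10 Hz replicate 6 (22.9 CPM), against 1 Hz replicate 1 (32.3) and 4 Hz replicate 3 (26.5). The share differed in both (two-sided exact permutation p = 0.00433 each, 0.0104 adjusted), so there it and the pacing can hardly be told apart. With the share in the fit, log2 fold changes turned to 0.036 for Klf2 and -0.16 for Klf3 at 1 Hz against control. They turned to -0.53 for Klf2 and 0.20 for Klf10 at 10 Hz against 1 Hz. At 10 Hz against 4 Hz they turned to 0.086 for Klf4, 0.0996 for Klf5 and 0.12 for Klf10. Among the values without a test, Klf6 turned to 0.13 at 1 Hz against control. At 4 Hz against control Klf9 turned to -0.038 and Klf13 to -0.19. With limma on log2(TPM + 0.1) 4 members were called at 1 Hz against control, and with limma on TPM at either pseudocount (1 or 0.1) or without a filter 1 was called at 10 Hz against control. The cause was not tested. By adjusted p alone, which drops the fold threshold, the counts were 6 at 4 Hz against control, 7 at 10 Hz against 1 Hz and 6 at 10 Hz against 4 Hz. Fits of only the 12 libraries compared gave 0 at 10 Hz against control.

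Leaving out 1 library at a time gave 0 to 2 called members at 10 Hz against control, with 0 without 10 Hz replicate 6 and 1 without 10 Hz replicate 4 or 5 or control replicate 3. The same gave 2 to 5 at 10 Hz against 4 Hz, with 5 without 10 Hz replicate 5 or 6 and 4 without 10 Hz replicate 4 or 4 Hz replicate 2. Without 10 Hz replicates 5 and 6 together the counts were 0 at 10 Hz against control and 6 at 10 Hz against 4 Hz. Of all tested genes 1.07% and 15.0% were called there.

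Differences near 0 changed sign. For Klf3 the log2 fold change was -0.020 with total count scaling at 1 Hz against control, and at 10 Hz against 1 Hz it was -0.0060 with no filter, -0.15 with limma on TPM (both pseudocounts, or no filter), -0.079 without 10 Hz replicates 5 and 6 and -0.043 to 0.069 leaving out 1 library. Against 4 Hz it was -0.0088 at 10 Hz without that pair. For Klf10 at 4 Hz against 1 Hz it was -0.083 or -0.084 with limma on TPM and -0.015 to 0.069 leaving out 1 library, and for Klf4 at 10 Hz against 4 Hz 0.011 with total count scaling, 0.018 or 0.019 with limma on TPM. Of 1338 values of single members under an alternative, 1240 were labelled the same. For Klf6, and for all members at 4 or 10 Hz against control, this means a shift below the replicate SD, and 29 such values moved further. Elsewhere it means the same sign and the same outcome of the call, where 24 lost a call, 16 gained a call and 29 changed sign. Sign changes and lost calls of the untested values are not in these numbers. The median of all genes at 4 Hz against control shifted from -0.01 to -0.11 with total count scaling and -0.16 with limma on log2(TPM + 1).

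With a replicate block the counts were 6, 3 and 2 at 1, 4 and 10 Hz against control, where Klf2 at 1 Hz lost its call (edgeR adjusted p = 0.0518), and the other comparisons kept 4, 4 and 2. Replicate numbers showed no clear pairing of the libraries. The correlation of deviations over 36 pairs of libraries with the same number ran from -0.184 to 0.362 (median 0.017), and 10 pairs were over 0.1. Over 180 pairs with other numbers it ran from -0.320 to 0.361 (median -0.013), and 49 pairs were over 0.1. Depth limits Klf15 and Klf2 most, with 0 to 41 and 22 to 158 counts per library.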
